A study of Mus musculus with 2 samples.

Results

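The collagen gene family was described in E11.5 mouse ureters that had been cultured for 18 h with or without IWP-2, an inhibitor of the acyltransferase PORCN that blocks the secretion of WNT ligands. Members were all genes whose name in the array annotation had the form Col, a number, a, and a number, which gave 69 probes for 44 genes out of 29924 gene names on the arrays. Of these, 37 collagen genes were well enough above background to be tested, among 20119 tested genes.

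Ureters of wildtype NMRI embryos were taken at E11.5 and kept on transwell membranes in medium that held either 10 µM IWP-2 or the solvent DMSO at 2 parts in 1000 (control). Each of 2 two-colour Agilent arrays carried RNA from 1 pool of treated ureters and 1 pool of control ureters, amplified in 1 round and labelled with AlexaFluor647 and AlexaFluor555. In replicate 1 the treated RNA carried AlexaFluor647, and in replicate 2 the dyes were swapped. The sex of the embryos was not determined, and because pools of whole ureters were hybridised, epithelium, mesenchyme, vessels and attached cells contributed to every signal.

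Collagens are secreted or membrane-bound proteins in which 3 alpha chains wind into a triple helix built of repeated triplets, each of which begins with glycine. Fibrillar collagens form the cross-striated fibrils of connective tissue, type IV collagen forms the sheet-like network of basement membranes together with laminins and nidogens, and transmembrane collagens span the cell membrane with a collagenous ectodomain that can be shed. The remaining types decorate fibrils (the FACIT collagens), form beaded filaments (type VI), anchor epithelia (type VII) or build hexagonal networks (types VIII and X). In the ureter, collagens lie in the basement membrane beneath the epithelium and in the mesenchymal wall, whose outer layer becomes the fibroblast-rich adventitia.

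The probes themselves are 60-base sequences of the transcripts, and the triple helix can be read in those that lie in its coding part. The 2 probes shown belong to transmembrane members with opposite directions of change, Col23a1 and Col25a1. Coordinates are those of the array annotation (mm9), and capitals mark glycine codons spaced 3 codons apart in an open reading frame.
Col25a1 probe A_55_P2107711, chr3:130270497-130270556, plus strand: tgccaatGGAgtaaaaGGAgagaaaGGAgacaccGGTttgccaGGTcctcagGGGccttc
Col23a1 probe A_51_P457557, chr11:51381425-51382971, plus strand: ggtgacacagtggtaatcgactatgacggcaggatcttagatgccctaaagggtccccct
The Col25a1 probe held 6 glycine codons in step and is therefore shown as an example of the collagen repeat. The Col23a1 probe had 1 open reading frame and its 60 bases were spread over 1547 bases of chromosome 11, so that it crossed an exon junction. Of the 69 collagen probes, 3 held at least 5 glycine codons in step, and 1 of these was bright enough to be kept.

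Col23a1, which encodes the transmembrane collagen type XXIII, fell most clearly of all collagens after IWP-2 treatment. Its normalised intensity was 18766 in the control and 6900 in the treated channel of replicate 1, and 15994 and 5735 in replicate 2. Both treated values lay below both control values, and the log2 ratio of treated over control was -1.44 in replicate 1 and -1.48 in replicate 2. The mean was -1.46 ± 0.03 (SD, n = 2), which is 2.75-fold lower, with an adjusted p of 0.00239 by limma with Benjamini-Hochberg adjustment over all genes tested. Log2 ratios throughout are loess-normalised, with treated over control.

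The 3 probes for Col23a1 were all above background and all lower on both arrays. The probe A_55_P2086978 (chr11:51394105-51394164) read -1.22 and -1.34 on the log2 scale in replicates 1 and 2. The probe printed above read -0.93 and -1.56. The brightest probe, A_52_P441036 (chr11:51396885-51396944), gave the values tested. All 3 lie on the plus strand of chromosome 11 within the same gene and are not independent measurements of the culture.

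Col12a1, which encodes a FACIT collagen that binds along fibrils of type I collagen, also fell. The control and treated intensities were 4617 and 2386 in replicate 1, and 3331 and 2174 in replicate 2. The treated values again lay below both control values. The log2 ratios were -0.95 and -0.62, with a mean of -0.78 ± 0.24 (SD, n = 2), a 1.72-fold decrease with a limma adjusted p of 0.034. A single Col12a1 probe carried this result, because the other one had no spot well above background in any channel. The adjusted p rose to between 0.0508 and 0.335 in 5 of 8 alternative analyses, while the direction was kept in all of them.

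Col23a1 and Col12a1 were the 2 collagens called lower at a false discovery rate of 0.05, out of 37 tested, beside 1.15% of all genes tested. None was called higher by limma, beside 0.611% of all genes. Without adjustment, 8 of 37 collagens were lower and 2 were higher at p below 0.05, beside 4.74% and 8.67% of all genes tested, and a trended, robust prior called 3 lower (with Col9a2) and 0 higher. With 1 residual degree of freedom per gene, changes short of the threshold cannot be taken as absent.

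**Figure D1:**
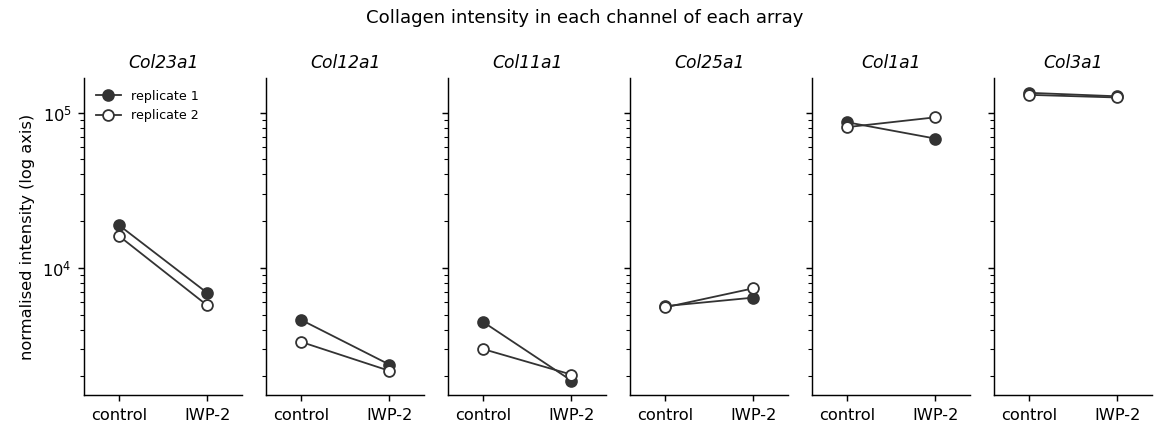
Normalised intensity (vertical log axis) in the control and IWP-2 channel of each array for 6 collagen genes, with filled points for replicate 1, open points for replicate 2 and a line joining the 2 channels of an array. Col23a1 and Col12a1 were lower in the treated channel of both arrays, Col25a1 was slightly higher, Col1a1 moved in opposite directions, and Col3a1 differed by less than 0.08 on the log2 scale on either array.

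The study used cut-offs on intensity and fold change on each array. Applied here as at least a 2-fold change in the same direction on each array and 100 or more units of processed intensity in whichever channel was brighter, these cut-offs passed Col23a1 as the single collagen. Asking for that intensity in both channels left Col23a1 passing, while the genes passing as lower dropped from 50 to 26 and those passing as higher from 11 to 7. Its processed intensity went from 3326 to 1230 in replicate 1 and from 3027 to 1062 in replicate 2. The filter has no test. It passed 0.344% of the genes bright enough as lower and 0.0756% as higher, while 1 of 28 bright collagens passed as lower and 0 as higher. At 1.5-fold, Col12a1 passed as well.

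Control brightness spanned a wide range within each class. Intensities of different probes depend on the probe as well as on the transcript and therefore do not rank the genes by expression. The fibrillar class (11 genes, all tested) ran from 533 to 134338 in the control of replicate 1 and from 406 to 130329 in replicate 2. The basement membrane class (7 of 8 genes tested) ran from 152 to 66893 and from 163 to 55101. Transmembrane collagens (4 genes, all tested) lay between 152 and 18766 in replicate 1 and between 145 and 15994 in replicate 2. The other collagens (15 of 21 genes tested) lay between 331 and 31626, and between 237 and 26368.

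The brightest collagen probes in control ureters were those of the interstitial fibrillar collagens Col3a1, Col1a2, Col1a1 and Col2a1, followed by Col18a1, Col4a1 and Col26a1. The dimmest that were still tested were Col4a4, Col13a1 and Col17a1, with control intensities between 145 and 166. On both arrays, 7 collagens were not well above background and were not tested. These were the basement membrane gene Col4a3 and, among the other collagens, Col6a4, Col6a5, Col6a6, Col10a1, Col19a1 and Col28a1. Col10a1 is the marker of hypertrophic cartilage. Their highest processed intensity was 2.58 in any channel, and Col4a3 had at most 1 spot of 4 above background.

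**Figure D2:**
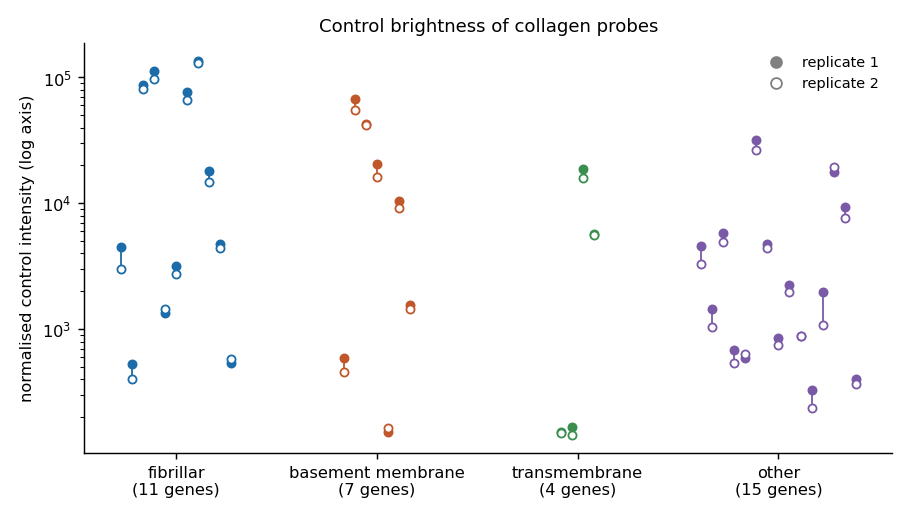
Normalised control intensity (vertical log axis) of the tested probe of each collagen gene, by class on the horizontal axis, with filled points for replicate 1 and open points for replicate 2 joined by a line. The control values of the same probe lay close together on the 2 arrays, while the probes of each class spread widely, from 533 to 134338 for fibrillar collagens in replicate 1.

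Across the 37 tested collagens, 18 were lower on both arrays, 5 were higher on both and 14 moved in opposite directions. Among all genes tested, 27.5% were lower on both arrays and 28.5% were higher on both, so that the shares among collagens were 48.6% and 13.5%. The tilt was uneven between the arrays. On replicate 1, 30 of 37 collagens were below 0, with a median log2 ratio of -0.21, whereas on replicate 2 there were 20 with a median of -0.021. Among all 20119 genes tested, 10621 were below 0 on replicate 1 and 9312 on replicate 2, with medians of -0.01 and 0.02. Most collagen changes were thus smaller than the difference between the arrays, and the median over the mean of both arrays was -0.08.

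**Figure D3:**
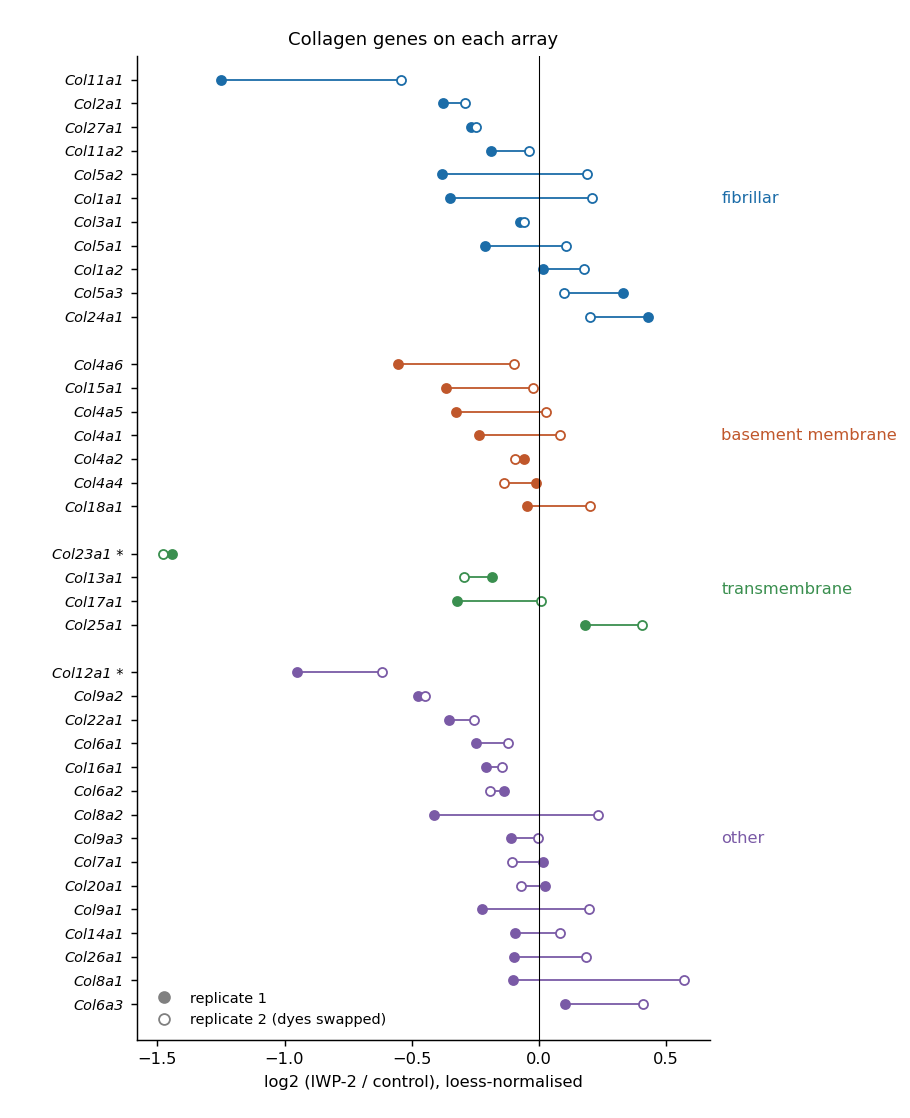
Log2 ratio of IWP-2 over control (horizontal axis) for each tested collagen gene, sorted within classes, with filled points for replicate 1 and open points for replicate 2. Asterisks mark the 2 genes past a false discovery rate of 0.05, Col23a1 and Col12a1. The filled points lie left of 0 for 30 of 37 genes and the open points for 20, beside 10621 and 9312 of all 20119 genes tested.

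Fibrillar collagens had a median log2 ratio of -0.21 in replicate 1 and 0.10 in replicate 2. Of the 11 genes, 5 were lower on both arrays and 3 were higher on both, beside 27.5% and 28.5% of all genes tested. The other 3 were mixed, and none of the 11 passed the limma threshold. Without adjustment, 3 were lower and 1 was higher at p below 0.05, where 4.74% and 8.67% of all genes lay. The class median over both arrays was -0.07 ± 0.22 (SD of the 2 array medians).

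The collagens of the common interstitial fibrils were among those with small mean changes. Col1a1 and Col1a2 encode the chains of type I collagen. Col1a1 read 86712 in control and 68149 in treated ureters of replicate 1, and 80802 and 93382 in replicate 2, so the direction was reversed between the arrays. Its mean log2 ratio was -0.07, with a 95% interval of -0.42 to 0.28. Col1a2 had ratios of 0.02 and 0.18. Col3a1, the homotrimeric type III collagen that accompanies type I, had ratios of -0.07 and -0.06 and an interval of -0.30 to 0.17.

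Type V collagen, which regulates fibril diameter, showed no shared direction of its chains. Col5a1 had log2 ratios of -0.21 and 0.11, and Col5a2 had -0.38 and 0.19. Col5a3 was higher on both arrays, with 0.33 and 0.10, but did not pass the test (limma adjusted p = 0.497).

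The largest mean change in the fibrillar class was that of Col11a1, a chain of the fibril-nucleating type XI collagen of cartilage and other tissues. Its intensities were 4473 in control and 1881 in treated ureters of replicate 1, and 2996 and 2056 in replicate 2. The treated values lay below both controls, but the log2 ratios of -1.25 and -0.54 differed by more than a factor of 2. The mean of -0.90 ± 0.50 (SD, n = 2) had a limma adjusted p of 0.0629 and was not called. In 1 of 8 alternative analyses it passed, when the kept probes of each gene were averaged (limma adjusted p = 0.0416). Col11a1 has 1 probe, so its own ratios were the same there, and the adjusted p shifted with the values of other genes. The partner chain Col11a2 had ratios of -0.19 and -0.04.

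Col2a1, the chain of the main cartilage collagen, was next, with 77232 in control and 59469 in treated ureters of replicate 1, and 66329 and 54230 in replicate 2. Its log2 ratios were -0.38 and -0.29 and it did not pass (limma adjusted p = 0.199). The developmental fibrillar collagen Col24a1 lay on the other side. It read 1357 in control and 1827 in treated ureters of replicate 1, and 1443 and 1658 in replicate 2. The ratios were 0.43 and 0.20 (limma adjusted p = 0.264). Col27a1, a fibrillar collagen of cartilage, had ratios of -0.27 and -0.25 (limma adjusted p = 0.32).

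Of the FACIT type IX collagen, which sits on type II fibrils, Col9a2 came closest to the threshold. It read 9340 in control and 6727 in treated ureters of replicate 1, and 7680 and 5628 in replicate 2, giving log2 ratios of -0.47 and -0.45 (limma adjusted p = 0.0836). The other type IX chains were closer to 0, with -0.22 and 0.20 for Col9a1 and -0.11 and -0.005 for Col9a3. The partner chains of types IX and XI therefore did not share the size of change of Col9a2 and Col11a1, although the differences between chains were not tested.

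Markers of cartilage were measured beside these genes. Of 9 markers, 4 were not well above background on these arrays, namely Acan, Cnmd, Matn1 and Ucma. The transcription factor gene Sox9, which is needed for cartilage and is also active in ureteric mesenchyme, fell from 9536 to 3304 in replicate 1 and from 6835 to 3272 in replicate 2. Its mean log2 ratio was -1.30 (limma adjusted p = 0.0108). The cartilage link protein gene Hapln1 had a positive mean of 0.55 (limma adjusted p = 0.0747). The summed intensity of the 5 tested cartilage markers was 49840 in control and 51606 in treated ureters of replicate 1, and 49682 and 50242 in replicate 2. Sox5 supplied 33201 and 35906 of the control sums, so these sums mostly follow 1 probe. Of the 5 genes, 2 were lower and 3 were higher on both arrays, beside 27.5% and 28.5% of all genes tested. Sox9 was the single one called.

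Basement membrane collagens lay below 0 for all 7 tested genes in replicate 1 and for 4 in replicate 2. Of all 20119 genes tested, 10621 and 9312 did. The median log2 ratio was -0.23 in replicate 1 and -0.021 in replicate 2, and -0.08 for the mean of both arrays. On both arrays, 4 of 7 genes were lower and none was higher, beside 27.5% and 28.5% of all genes tested. None of the 7 passed the limma threshold. Without adjustment 1 gene, Col4a6, was lower and 0 were higher at p below 0.05, beside 4.74% and 8.67% of all genes.

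Type IV collagen genes lie in head-to-head pairs. For the ubiquitous pair, Col4a1 read 42503 in control and 36154 in treated ureters of replicate 1, and 41947 and 44423 in replicate 2, a log2 ratio of -0.23 and 0.08. Col4a2 had ratios of -0.06 and -0.09. The 95% interval of the mean change reached from -0.35 to 0.20 for Col4a1 and from -0.31 to 0.16 for Col4a2. A 2-fold change of either lay outside its unadjusted interval, whose width rests largely on the spread shared over all genes tested.

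In the X-linked pair, Col4a5 had log2 ratios of -0.33 and 0.03. Col4a6 read 1568 in control and 1069 in treated ureters of replicate 1, but 1455 and 1360 in replicate 2, with ratios of -0.55 and -0.10 (limma adjusted p = 0.36). A dimmer Col4a6 probe read -0.10 and -0.15. In the remaining pair, Col4a3 was not well above background and Col4a4 was dim, with ratios of -0.01 and -0.14. The mean log2 ratios of the partners were -0.075 for Col4a1 and -0.074 for Col4a2, and -0.15 for Col4a5 and -0.33 for Col4a6. Differences between partners were not tested.

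The multiplexins Col15a1 and Col18a1 carry endostatin domains and link basement membranes to the matrix below. Col15a1 read 588 in control and 457 in treated ureters of replicate 1, and 458 and 451 in replicate 2, with log2 ratios of -0.36 and -0.02. Col18a1 was bright, at 66893 and 64760 in replicate 1 and at 55101 and 63309 in replicate 2, and its ratios of -0.05 and 0.20 had opposite signs.

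Transmembrane collagens held both a strong decrease and a higher member. Beside Col23a1, Col25a1 read 5674 in control and 6434 in treated ureters of replicate 1, and 5576 and 7387 in replicate 2. This gene encodes the collagen type XXV of neurons and of muscle precursors. Both treated values lay above both controls, with log2 ratios of 0.18 and 0.41. All 4 probes of Col25a1 were above background and positive on both arrays, with means between 0.22 and 0.34, but the gene did not pass the test (limma adjusted p = 0.297). Neural markers were higher on both arrays for 8 of 9 genes, beside 28.5% of all genes tested. None of them was called, and 6 were higher at an unadjusted p below 0.05, beside 8.67% of all genes. The part of neural cells in the Col25a1 values was not tested.

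The remaining transmembrane collagens were dim. Col13a1 had control intensities of 152 and 150 against 134 and 122 in treated ureters, and log2 ratios of -0.18 and -0.29. Col17a1, the collagen of epithelial hemidesmosomes, had ratios of -0.32 and 0.01. The median of the 4 transmembrane genes was -0.20 ± 0.08 (SD of the 2 array medians). It moved to -0.48 with Agilent processed signals.

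Among the other collagens, the beaded-filament type VI chains split. Col6a1 had log2 ratios of -0.25 and -0.12, and Col6a2 had -0.14 and -0.19. Col6a3 read 2260 in control and 2426 in treated ureters of replicate 1, and 1975 and 2621 in replicate 2, so its ratios were positive, at 0.10 and 0.41. None of the 3 passed the test, with limma adjusted p values of 0.554, 0.619 and 0.421.

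Of the network-forming type VIII chains, Col8a1 had log2 ratios of -0.10 and 0.57 and Col8a2 had -0.41 and 0.23, so that both were lower in replicate 1 and higher in replicate 2. The FACIT collagen Col22a1 of tissue junctions read 587 in control and 459 in treated ureters of replicate 1, and 639 and 535 in replicate 2. Its ratios were -0.35 and -0.25 (limma adjusted p = 0.242). Means for Col7a1, Col14a1, Col20a1 and Col26a1 lay between -0.04 and 0.05, and Col16a1 had a mean of -0.18. The median of the 15 tested genes was -0.06, and 7 were lower on both arrays, 1 was higher on both and 7 were mixed. The shares over all genes tested were 27.5% lower and 28.5% higher on both.

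Where a gene had several probes above background, these agreed in the sign of their mean. Among 11 such genes there were 14 additional probes, all of the same sign as the brightest probe. The signs on single arrays did not always agree. The brightest Col16a1 probe read -0.21 and -0.14, and another read -0.35 and 0.08. For Col9a1 these were -0.22 and 0.20 against -0.10 and -0.04. The counts of genes lower on both arrays or mixed thus depend in part on the probe. The kept probes of Col15a1 overlap in position, as do those of Col26a1. The median difference from the brightest probe was 0.05 on the log2 scale and the largest was 0.22, for Col23a1.

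**Figure D4:**
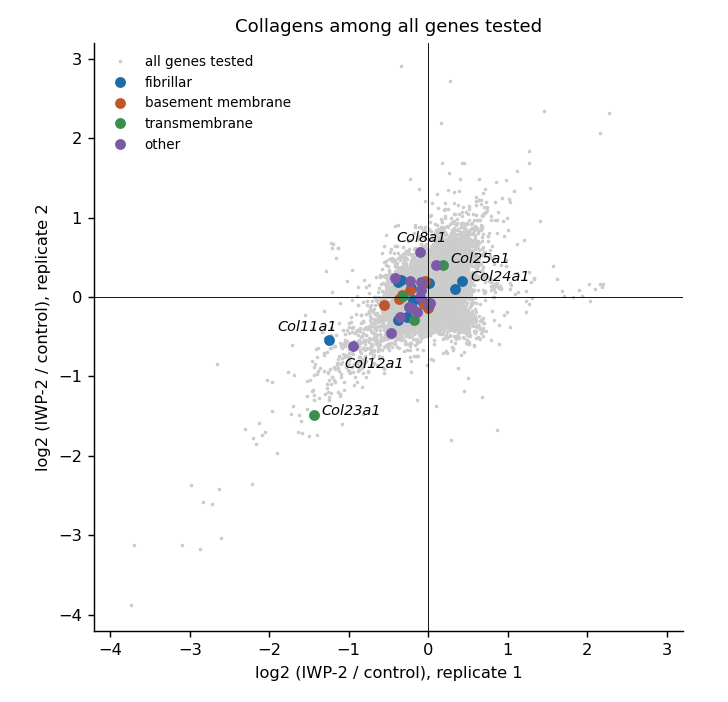
Log2 ratio of IWP-2 over control in replicate 1 (horizontal axis) and replicate 2 (vertical axis) for all 20119 genes tested (grey) and the 37 collagens (coloured by class). Col23a1, Col12a1 and Col11a1 leave the central cloud towards the lower left, and the remaining collagens lie within it.

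The proteins that modify, process, link and bind collagen were listed separately as 70 genes in 6 groups, of which 67 were tested. At a false discovery rate of 0.05, limma called 3 lower (Tll1, Dcn and Nid2) and none higher, beside 1.15% and 0.611% of all genes. Without adjustment the counts were 12 lower and 5 higher at p below 0.05, against 4.74% and 8.67% of all genes tested, and a trended, robust prior called 1 higher. The median log2 ratio over the 67 genes was -0.03.

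Procollagen processing held the largest decrease. Tll1 encodes tolloid-like 1, a protease of the BMP1 family that trims the C-terminal propeptide of fibrillar procollagens. It read 4761 in control and 355 in treated ureters of replicate 1, and 5561 and 379 in replicate 2. The log2 ratios of -3.75 and -3.88 gave a mean of -3.81 ± 0.09 (SD, n = 2), the lowest of all 20119 genes tested, with a limma adjusted p of 0.000139. A second Tll1 probe was dim, with control intensities of 145 and 165, and read -0.42 and -0.59, so that the mean over both probes was -2.16.

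The remaining processing genes changed less. The related protease gene Bmp1 had log2 ratios of -0.14 and -0.23. The enhancer gene Pcolce2 had -0.46 and -0.63 (limma adjusted p = 0.0628), while Pcolce had -0.12 and 0.21. Of the N-propeptidases, Adamts3 had a mean of -0.46 (limma adjusted p = 0.0826), Adamts14 had -0.35 and Adamts2 had -0.09. In this group, 5 of 7 tested genes were lower on both arrays and none was higher on both, with a median of -0.35. The shares over all genes tested were 27.5% lower and 28.5% higher on both.

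Fibril-binding partners included the second called gene, Dcn, which encodes decorin, a small proteoglycan that coats collagen fibrils. It read 6675 in control and 3332 in treated ureters of replicate 1, and 6500 and 3366 in replicate 2. The mean log2 ratio was -0.98 ± 0.04 (SD, n = 2; limma adjusted p = 0.0107), and the call was lost with median centring in place of loess (limma adjusted p = 0.131). The related proteoglycan gene Lum had ratios of -0.96 and -0.04 and was not called, Bgn had a mean of -0.16, and Postn had a mean of 0.05. The group median over 12 tested genes was -0.07.

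Among basement membrane partners, Nid2, a nidogen that bridges laminin and type IV networks, read 11811 in control and 7056 in treated ureters of replicate 1, and 10792 and 7548 in replicate 2. Its mean log2 ratio was -0.63 ± 0.16 (SD, n = 2; limma adjusted p = 0.0463), and it missed the threshold in 6 of 8 alternative analyses. Its paralogue Nid1 had ratios of -0.06 and 0.29. Laminin chains lay mostly above 0, with 0.37 on both arrays for Lama4 and 0.23 and 0.24 for Lamb1, neither called, and the perlecan gene Hspg2 had a mean of -0.0023. The group median over 12 genes was 0.06.

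The enzymes and chaperones that build the collagen chains stayed near 0. In this group of 21 genes, 6 were lower and 5 were higher on both arrays, beside 27.5% and 28.5% of all genes tested. None of the 21 passed the limma threshold. At an unadjusted p below 0.05, 1 was lower and 2 were higher, beside 4.74% and 8.67% of all genes. The median was -0.02. The largest mean was that of the glycosyltransferase gene Colgalt2, with ratios of 0.63 and 0.49 (limma adjusted p = 0.0563), and the collagen chaperone gene Serpinh1 had ratios of -0.19 and 0.17.

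Crosslinking genes had mixed directions. Lox, the founding lysyl oxidase, had log2 ratios of -0.58 and -0.33, while Loxl1 had 0.31 and 0.40 and the transglutaminase gene Tgm2 had 0.32 and 0.96. None of the 7 was called by limma. At an unadjusted p below 0.05, 1 was lower and 2 were higher, beside 4.74% and 8.67% of all genes. Among the 8 collagen receptors, Itga1 had the largest mean, -0.37 (limma adjusted p = 0.17), followed by Mrc2 with -0.32 and Ddr2 with -0.24. None of the receptors was called, and 3 were lower and 0 were higher at an unadjusted p below 0.05, beside the same 4.74% and 8.67%.

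**Figure D5:**
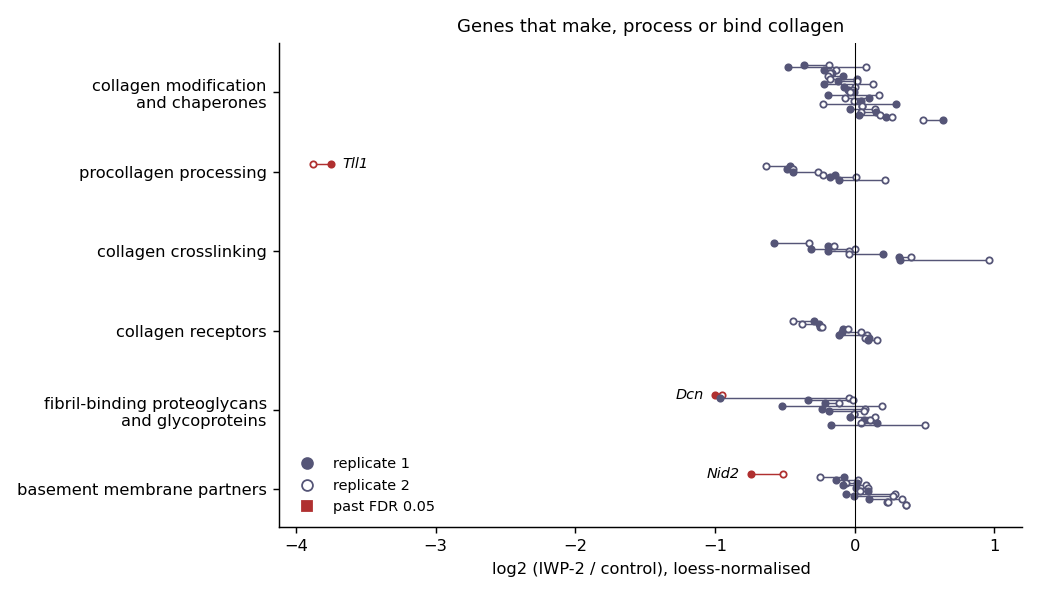
Log2 ratio of IWP-2 over control (horizontal axis) for the 67 tested genes of 6 collagen-related groups, with filled points for replicate 1 and open points for replicate 2. Red marks the 3 genes past a false discovery rate of 0.05, of which Tll1 stands near -3.8, Dcn near -1 and Nid2 at -0.63.

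Markers of the cells in the explant moved with the treatment. Of 10 ureteric mesenchyme markers, 8 were lower on both arrays and 4 were called (Foxf1, Tbx18, Tcf21 and Bmp4). The other 2 were higher on both, Twist1 with log2 ratios of 0.18 and 0.73 and Aldh1a2 with 0.08 and 0.02. At an unadjusted p below 0.05, 6 were lower and 1, Twist1, was higher. The study proposes Foxf1 and Bmp4 as likely direct WNT targets, and cites earlier work for Tbx2 and Tbx3 as WNT targets. It also reports loss of Tbx18 expression in ureters without mesenchymal Ctnnb1. The list and its sum therefore do not count mesenchymal cells. The summed intensity of the 10 markers went from 453752 to 350010 in replicate 1 and from 458352 to 352207 in replicate 2. Endothelial markers were higher on both arrays for 10 of 10 genes, with 2 called (Cldn5 and Kdr), and macrophage markers for 10 of 10, with 1 called (Adgre1). Over all genes tested, 27.5% were lower and 28.5% higher on both arrays, and 1.15% were called lower and 0.611% higher. At an unadjusted p below 0.05, 4.74% of all genes were lower and 8.67% higher. Of the ureteric epithelium markers, 5 of 10 were higher on both arrays and none was called, with 0 lower and 4 higher at an unadjusted p below 0.05. Of 9 muscle markers, 8 were tested and none was called, and the smooth muscle gene Myh11 was not well above background. At an unadjusted p below 0.05, 4 were lower (Cnn1, Actg2, Tagln and Acta2) and 1, Myog, was higher. Myog was kept through its treated channels alone. Its control intensities of 114 and 97 lay near background, so the filter favoured a rise and its direction carries no weight. In such bulk samples, fewer cells of a type and less RNA per cell cannot be told apart, and the part of these shifts in the collagen values was not tested.

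Kidney mesenchyme markers were mixed. Of 8, 2 were lower on both arrays and 2 were higher on both, beside 27.5% and 28.5% of all genes tested, and 4 changed sign between the arrays. Osr2, with log2 ratios of -1.31 and -0.73, was called lower (limma adjusted p = 0.0322), and Meox1, with 1.20 and 0.72, was called higher (limma adjusted p = 0.0286). Among those that changed sign, the nephron progenitor gene Six2 had log2 ratios of 1.03 and -0.38, and the stromal gene Foxd1 had 0.89 and -0.36. The summed intensity of the 8 kidney markers went from 84759 to 103660 in replicate 1 and from 102011 to 83263 in replicate 2. The 2 arrays also differed in dye assignment and in the sums of other marker lists. The log2 ratio of summed intensities was 0.02 and 0.27 for ureteric epithelium and -0.40 and -0.19 for muscle in replicates 1 and 2. With 2 arrays, such differences cannot be told apart as sources of the uneven collagen tilt. A part of kidney tissue in that tilt was not tested.

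Promoters were searched for the core recognition letters of TCF/LEF factors, the nuclear effectors of WNT signalling. The 300-base RefSeq windows around gene starts (GRCm38.p6) were scanned on both strands for CTTTG followed by 2 letters that are each A or T. A match was present in 7 of 38 collagen windows, or 18.4%, and in 16.9% of all 32851 windows. The matches lay at Col6a2, Col9a1, Col9a2, Col13a1, Col15a1, Col20a1 and Col28a1, and the window of Col23a1 had none. Of these genes, Col9a1 and Col20a1 had mixed directions and Col28a1 was not tested. Some collagens had more than 1 window and others had none. Col1a1, Col2a1, Col4a3, Col5a2, Col9a3, Col12a1, Col14a1, Col22a1 and Col26a1 were without a window and were not scanned. These letters describe the windows and do not locate binding.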

How the data were processed

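RNA of IWP-2-treated and control ureters was compared on 2 two-colour arrays of Agilent design 084956. The authors deposited spot intensity values from Feature Extraction, whose version is 10.7.3.1 per the labels and 12.2.0.7 per the file headers (build mm9), and a series table of signed fold changes rounded to 1 decimal, used here as a score in an alternative analysis. That table's normalization is not given in the sources used here.

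Mean intensity minus local background was corrected by normexp with an offset of 50, normalised by loess within each array with control spots at weight 0, and turned to treated over control by the dyes in the labels. Channel intensities were printed after Aquantile normalisation between arrays, and the offset narrows ratios of dim probes. Outlier spots were dropped, and remaining spots (at most 4 per probe) were averaged. Probes were retained when more than 0.5 of their spots were well above background in the treated channel of both arrays or in the control channel of both, and the brightest retained probe represented a gene. The log2 ratios were tested with limma 3.58.1 in R 4.3.3, with Benjamini-Hochberg adjustment over 20119 genes at 0.05. Both arrays count as replicates, and their labels name no separate litters. With 1 residual degree of freedom per gene, limma takes the spread behind p-values and confidence intervals largely from all genes tested together. The p-values and intervals therefore do not measure the spread between the 2 arrays alone. Col3a1 had an SD of 0.013 between the arrays but a standard error of 0.098, and Col23a1 had 0.025 and 0.098. The number of arrays limits precision. The functions were tested on simulated arrays.

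Members, classes, gene lists and the rule for genes given in full (those past the threshold, the 3 largest mean changes of each class, the type IV pairs, and in each pathway group the called genes and the largest mean change) were chosen with earlier results of these data known. Other genes named are members of the family or the lists.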

Additional observations from a re-analysis of the deposited data

How the results depend on the processing

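The direction of Col23a1, Col12a1, Col11a1, Tll1, Dcn and Nid2 was the same under every alternative tried. Values not called could change sign without replicate 1, where Col4a1 read 0.08 instead of -0.08, Col4a5 0.028 instead of -0.15 and the fibrillar median 0.10 instead of -0.07. Col23a1 and Tll1 passed the threshold in all 8 alternatives with a test, with adjusted p between 0.000325 and 0.0435 for Col23a1. Over the genes tracked singly, 149 tested values were unchanged in call, 7 gained it and 12 lost it. Collagens called lower numbered 1 instead of 2 with no background correction, with processed signals, with median centring, with no filter on dim probes and at a false discovery rate of 0.01, and 4 with the deposited series table. Collagen pathway genes called lower numbered 1 instead of 3 with median centring and at 0.01, and 9 with the series table, where those called higher numbered 4 instead of 0, and 1 with the mean over kept probes or a trended, robust prior. Collagens higher on both arrays numbered 3 instead of 5 with median centring. The transmembrane median was -0.48 with processed signals and -0.30 with the series table, where the median of the other collagens was -0.11. With a 1.5-fold limit 2 collagens instead of 1 passed the intensity filter. The cause of these shifts was not tested.

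Leaving out 1 array gives values with no test. Collagens below 0 then numbered between 20 and 30, those above 0 between 7 and 17, and those lower through the filter between 1 and 2. Of all 20119 genes tested, between 9312 and 10621 were below 0. Class medians ranged from -0.21 to 0.10 for fibrillar, -0.23 to -0.021 for basement membrane, -0.25 to -0.14 for transmembrane and -0.14 to -0.070 for other collagens. The ratio within each array is itself the pairing of a treated with a control pool, and the test used these ratios, so no further block was fitted. Depth does not apply to arrays, and 7 of 44 collagens lay too close to background to be measured.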
